A study of Bos taurus with 8 samples.

Results

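Of 10 transcription factors of the developing lung, 7 could be followed on the arrays: NKX2-1, CEBPA, CEBPD, ELF5, KLF5, ETV5 and TBX4. Probes were chosen by matching the accession of each non-control probe to a bovine gene symbol, which gave 14 probes for these 7 genes, out of 43653 probes and 11054 named genes on the array. FOXA1, FOXA2 and GATA6 obtained no probe by this rule and were dropped. RNA from whole lung was hybridised to 1-colour Agilent arrays, 1 array per animal. One group was 4 cloned Holstein calves with respiratory failure, lost within 4 days of birth. The other was 4 naturally conceived, healthy Holstein calves killed at 4 days. Every sample title gives an age of 4 days, while each clone's own age at death and the donor cells it came from are not stated. The comparison asks whether the regulators that stand above the surfactant genes differed between these groups. Cloning, respiratory failure and manner of death went together, so they cannot be told apart.

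These factors work as a network in the lung. NKX2-1, a homeodomain factor, opens the lung programme in the foregut and later binds the promoters of surfactant protein and secretoglobin genes together with FOXA and CEBP factors. CEBPA, KLF5 and ETV5 are needed for mature alveolar type II cells, the cells that make surfactant, the lipid and protein film that keeps alveoli open. TBX4 is known from lung mesenchyme rather than epithelium, so the heading of epithelial factor does not cover it. The array cannot assign a transcript to a cell type, and in whole tissue fewer cells of a type and less RNA per cell cannot be told apart.

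Values are log2 processed signal relative to the 75th percentile of the same array, so 1 unit is a 2-fold difference. Levels of different probes are not comparable. The scanner program placed 78.8% to 83.5% of an array's spots clearly over background, which the text calls well above background, and 0 as saturated. The lung-defining transcripts SFTPB and SFTPC were well above background on 8 of 8 arrays. Each group had a slide of its own, so slide and group cannot be told apart. Clones 2, 3 and 4 had clear signal of the Y-linked transcripts DDX3Y and USP9Y, which were not well above background in clone 1 or any normal calf. Relative to the 75th percentile, the median spike-in control was 0.67 log2 units higher in clones. Centring on the spike-ins instead moved the median log2 difference of all kept probes from -0.02 to -0.70, so a change shared by most lung transcripts is not measured on the percentile scale. With that centring the differences of all 7 factors were negative, between -0.99 and -0.33; relative to the shifted median they were -0.29 for NKX2-1, 0.28 for CEBPA and 0.37 for TBX4.

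None of the 7 factors passed the test for a difference between clones and normal calves. By limma with Benjamini-Hochberg adjustment over all 35636 kept probes, 0 of 7 passed an adjusted p of 0.05, and 0 of 7 had an unadjusted p under 0.05. Of all kept probes 0.177% passed, and 13.2% had an unadjusted p under 0.05. On average 3 members were higher and 4 lower in clones, with a median log2 difference of -0.019 against -0.015 over the 9867 genes tested; the signs of CEBPD and ELF5 were turned by quantile normalization. Clone and normal values were without overlap in 0 of 7 members, while 10.1% of kept probes were without overlap. The clones were more spread: 6 of 7 members had a larger standard deviation among clones than among normal calves, with a median ratio of 2.35. This was common to the array, since 91.1% of genes had the larger standard deviation in clones and the median ratio over kept probes was 3.06.

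**Figure D1:**
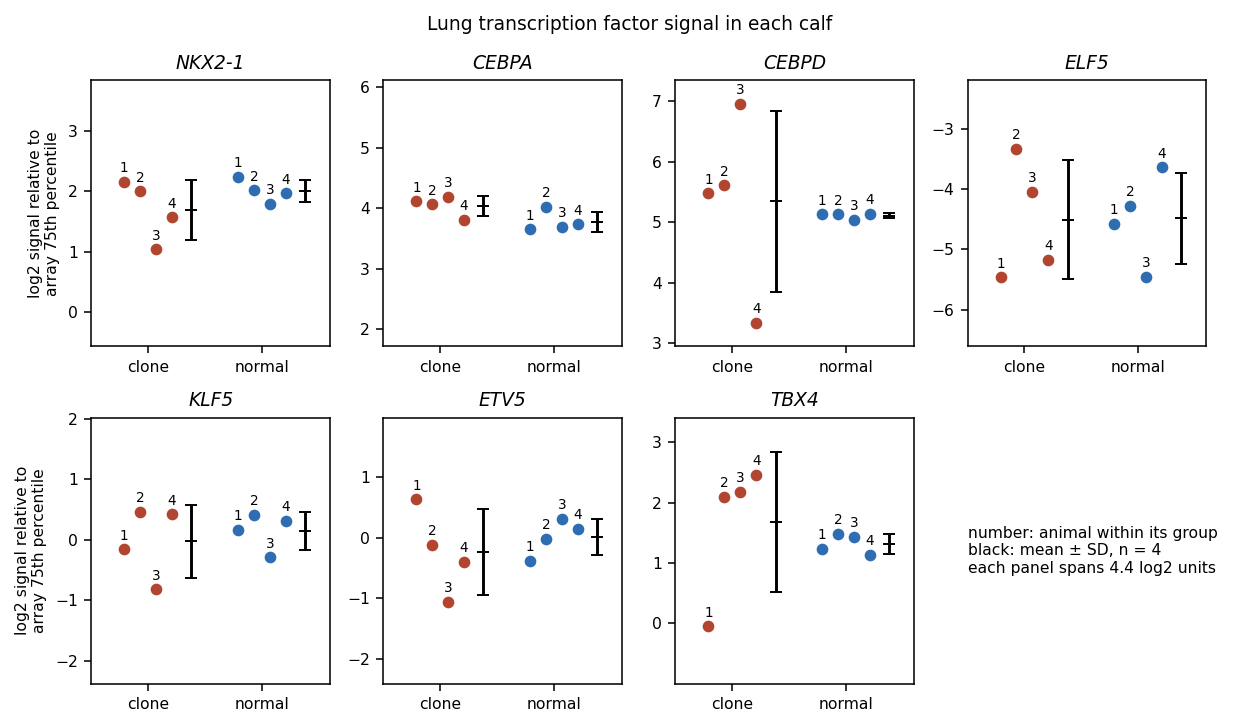
Signal of each transcription factor in every calf, as log2 relative to the array's 75th percentile, with numbered points for animals and black bars for the mean ± SD of 4; all panels span the same range. CEBPD ran from 3.34 to 6.96 in clones and from 5.04 to 5.14 in normal calves, and TBX4 was at -0.05 in clone 1 and at 2.10 or more in the other clones.

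NKX2-1, the homeodomain regulator of surfactant genes, was at 1.69 ± 0.50 in clones and 2.01 ± 0.18 in normal calves (mean ± SD, n = 4 each). It measured 2.16, 2.00, 1.04 and 1.57 in clones 1 to 4, while normal calves 1 to 4 had 2.24, 2.02, 1.80 and 1.97. Clones 1 and 2 lay inside the range of the normal calves, whereas clone 3 was 1.95-fold and clone 4 was 1.35-fold below the normal mean and under every normal calf. The group difference was -0.31 (SE 0.26, 95% interval -0.91 to 0.29, n = 4 each, limma adjusted p = 0.667). Its other probes differed by -0.42 and -0.13 (limma adjusted p = 0.577 and 0.844). All 3 probes put clone 3 lowest, at 1.04, -3.20 and -3.99. Clone 4 was under every normal calf on the first and second probes. On the third it was at -3.32, within the normal calves at -3.53 to -3.11. Over the 8 animals the probes correlated with each other at r between 0.76 and 0.94. With 1 animal left out the difference ranged from -0.47 to -0.10.

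CEBPA, a basic leucine zipper factor of type II cell maturation and lipid synthesis, had the narrowest interval of the 7. It measured 4.11, 4.06, 4.18 and 3.80 in clones and 3.65, 4.02, 3.69 and 3.73 in normal calves. Clones 1, 2 and 3 were above every normal calf, and clone 4 lay within their range. The difference was 0.27 (SE 0.17, 95% interval -0.13 to 0.66, n = 4 each, limma adjusted p = 0.564), and with 1 animal left out it ranged from 0.22 to 0.35. The second CEBPA probe was well above background on 0 clone arrays and 2 normal arrays and was not tested.

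CEBPD, a related factor that responds to glucocorticoids and to inflammatory cytokines, showed the widest divergence between clones. It measured 5.48, 5.61, 6.96 and 3.34 in clones 1 to 4, against 5.13, 5.13, 5.04 and 5.14 in normal calves. The normal calves spanned 1.07-fold and the clones 12.3-fold. Clone 3 was 3.6-fold above the normal mean and clone 4 was 3.4-fold below it. Among kept probes, 2.73% were at least as far above the normal mean in clone 3 and 2.05% at least as far below it in clone 4. The group difference was 0.24 (SE 0.64, 95% interval -1.22 to 1.70, n = 4 each, limma adjusted p = 0.913), which ran from -0.30 without clone 3 to 0.91 without clone 4 and was -0.020 with quantile normalization. IL6, a cytokine known to induce CEBP factors and singled out after its values were seen, stood at -1.17, -2.32, 3.20 and -3.18 in clones 1 to 4, with the normal calves between -2.84 and -1.90. It was highest in clone 3 and lowest in clone 4, as CEBPD was. In clone 1 both were above every normal calf, and in clone 2 CEBPD alone was. The part of IL6 in the CEBPD values was not tested. The mean of 11 measured markers of macrophages and neutrophils was 2.40, 0.72, 2.05 and 0.92 in clones 1 to 4, with 2.04 to 2.43 in normal calves. It was lowest in clone 2, whose CEBPD was above every normal calf, and its part in the CEBPD values was not tested.

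ELF5, an ETS factor of the distal lung bud downstream of FGF signals, varied widely in both groups. Its brighter probe measured -5.46, -3.34, -4.05 and -5.17 in clones and -4.57, -4.28, -5.45 and -3.64 in normal calves. Normal calf 3 was as low as clone 1, so the groups shared almost their whole range. The difference was -0.019 (SE 0.54, 95% interval -1.24 to 1.20, n = 4 each, limma adjusted p = 0.991). The second probe followed the first over the 8 animals (r = 0.98, Spearman rho = 0.98, exact permutation p = 0.000174). Both probes were dim, and 1 clone array lacked clear signal of the second.

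KLF5, a zinc finger factor of perinatal lung maturation, was low in clone 3. It measured -0.16, 0.46, -0.82 and 0.42 in clones and 0.16, 0.41, -0.29 and 0.31 in normal calves. Clone 3 was 1.96-fold below the normal mean, clones 2 and 4 slightly exceeded every normal calf, and clone 1 lay within them. The difference was -0.18 (SE 0.32, 95% interval -0.89 to 0.54, n = 4 each, limma adjusted p = 0.860), and without clone 3 it was 0.089. The second probe gave -0.32 and the third -0.38. The third did not follow the first over the animals (r = -0.035, Spearman rho = -0.30, exact permutation p = 0.933), whereas the second did (r = 0.96).

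ETV5, an ETS factor induced by FGF and ERK signalling and needed for type II cell identity, ran from the highest to the lowest of all 8 animals within the clones. It measured 0.64, -0.11, -1.06 and -0.40 in clones and -0.38, -0.01, 0.32 and 0.15 in normal calves. Clone 1 was above every normal calf, and clone 3 was 2.12-fold below the normal mean. The difference was -0.25 (SE 0.35, 95% interval -1.05 to 0.55, n = 4 each, limma adjusted p = 0.812), and it was 0.026 without clone 3. The second probe differed by -0.10 and followed the first (r = 0.95). FGF7, a ligand of this pathway singled out after its values were seen, was at -0.98, -0.19, -2.49 and -1.45 in clones 1 to 4 and between -0.76 and -0.33 in normal calves. It was lowest in clone 3, as ETV5 was, and in clone 4 both were below every normal calf. In clone 1 FGF7 was below every normal calf and ETV5 was highest. In clone 2 FGF7 was above every normal calf and ETV5 lay within them. The FGF-induced inhibitors SPRY4 and DUSP6 stood at -3.78 and 3.92 in clone 3, both above every normal calf. SPRY2, at 0.54, was below every normal calf in that clone, and SPRY1, at 3.49, lay within them. The part of FGF signals in the ETV5 values was not tested.

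TBX4, the T-box factor of lung mesenchyme, was high in 3 clones and low in the other. It measured -0.05, 2.10, 2.18 and 2.46 in clones 1 to 4, while the normal calves had 1.23, 1.48, 1.43 and 1.13. Clones 2, 3 and 4 were 1.72-fold, 1.82-fold and 2.21-fold above the normal mean and over every normal calf, while clone 1 was 2.58-fold below. The difference was 0.35 (SE 0.51, 95% interval -0.80 to 1.51, n = 4 each, limma adjusted p = 0.817). Without clone 1 it was 0.93 with a limma adjusted p of 0.0258, a setting in which 7.2% of all kept probes passed. With array weights, which let noisier arrays count less, it was 0.91 with a limma adjusted p of 0.0158, and 31.3% of all kept probes passed. The clones with high TBX4 were those with DDX3Y and USP9Y signal, and the part of sex in this was not tested. Once clone 1 is left out, the signal of these Y-linked transcripts and group cannot be told apart. The mean of 13 mesenchyme markers was 3.1 in clone 1 and 3.21 to 3.41 in the other clones, with 2.76 to 3.17 in normal calves. Its members differed: 5 of 13 were lowest of all animals in clone 1, among them the receptors PDGFRA at 0.48 and PDGFRB at -2.57. The collagen COL1A2, VIM and FBN1 were highest there, at 5.42, 7.22 and -1.88. Clone 1 was below every normal calf in 43.2% of kept probes, which is a looser measure. The share of kept probes lowest of all animals in clone 1 was not computed. The part of mesenchyme in the TBX4 values was not tested. The mean of 8 endothelial markers was 1.79 in clone 1 and 2.74 to 3.56 in the other 7 animals, and its part in the TBX4 values was not tested.

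**Figure D2:**
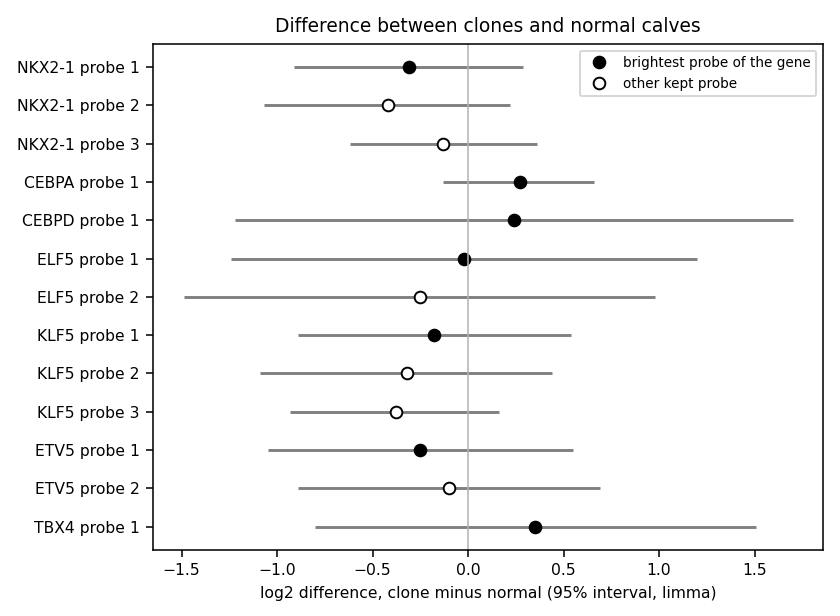
Log2 difference, clone minus normal, of the 13 kept probes of the 7 factors, with 95% intervals from limma; filled points are the brightest probe of each gene. Every interval includes 0, and the intervals of CEBPD, from -1.22 to 1.70, and of the dim ELF5 probes are the widest.

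Seen animal by animal, no clone departed from the normal calves in the same direction for all 7 factors. Clone 1 had 2 members below and 3 above every normal calf, clone 2 had 0 and 5, clone 3 had 3 and 3, and clone 4 had 3 and 2. Of all kept probes, 43.2%, 35.5%, 36.6% and 35.9% were below every normal calf in clones 1 to 4, and 32.3%, 34.2%, 42.3% and 35.9% were above. Being outside the range of 4 tightly grouped normal calves was thus usual for any probe. Clone 3 combined low NKX2-1, KLF5 and ETV5 with high CEBPA, CEBPD and TBX4. The mean of the alveolar type II markers was lowest in that clone, at 3.76, and highest in clone 1, at 4.81, with 4.14 to 4.26 in normal calves. The mean of 10 general epithelial markers was 1.49 in clone 3 and 1.92 in clone 1, both above the normal calves at 0.75 to 1.22, and 0.45 and 0.37 in clones 2 and 4, both below. The part of cell makeup in the values of the factors was not tested.

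**Figure D3:**
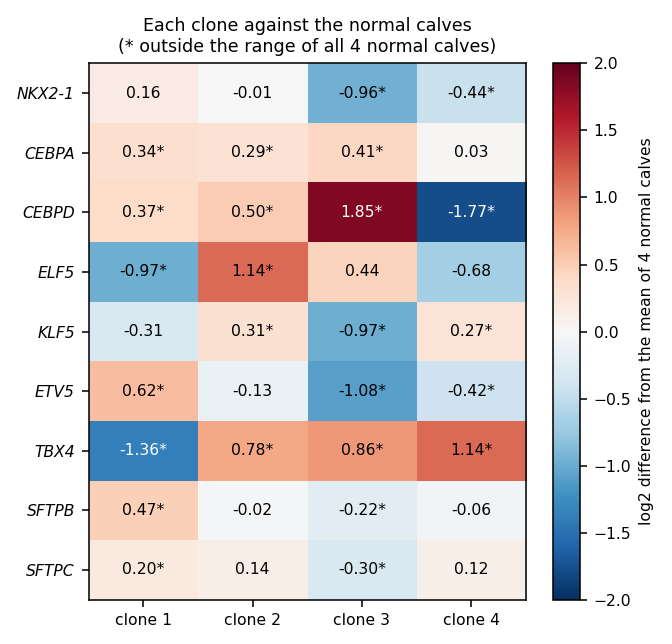
Log2 difference of each clone from the mean of the 4 normal calves for the 7 factors and for SFTPB and SFTPC, with an asterisk where the clone was outside the range of all 4 normal calves. CEBPD was 1.85 above in clone 3 and at -1.77 in clone 4, and TBX4 was at -1.36 in clone 1 and between 0.78 and 1.14 in the others.

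The levels of the factors were then set against those of SFTPB and SFTPC, the hydrophobic surfactant proteins that spread the lipid film. The brighter SFTPB probe and the SFTPC probe varied by 1.62-fold or less within a group. SFTPB measured 5.0, 4.50, 4.30 and 4.47 in clones and 4.53, 4.44, 4.47 and 4.65 in normal calves. SFTPC measured 7.94, 7.88, 7.45 and 7.87 in clones and 7.65, 7.88, 7.74 and 7.70 in normal calves. Clone 1 was highest and clone 3 lowest in both genes. The second SFTPB probe spread more, at 4.11, 3.25, 2.58 and 2.84 in clones and 3.1 to 3.61 in normal calves, with the same animals at the ends. With the brighter SFTPB probe and the SFTPC probe, 14 correlations were computed over the 8 animals, with exact 2-sided permutation tests. A limma regression fitted to all kept probes beside them supplied the adjusted p. The 4 animals of a group, or of a slide, are too few for an r of their own. Values centred on their group's mean are therefore given as the figure within groups and slides. The clones weigh most in that figure, because they spread more. The SD was 0.30 in clones and 0.09 in normal calves for SFTPB, and 0.23 and 0.10 for SFTPC.

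NKX2-1 was positively correlated with SFTPB and SFTPC, without passing the test on the brighter SFTPB probe or on SFTPC. With SFTPB its r was 0.63 (Spearman rho = 0.62, exact permutation p = 0.126, limma adjusted p = 0.286) and 0.75 after centring on the groups (exact permutation p = 0.158). With SFTPC its r was 0.61 (Spearman rho = 0.40, exact permutation p = 0.107, limma adjusted p = 0.341) and 0.75 after centring (exact permutation p = 0.120). Both relations leaned most on clone 3. Without clone 3 alone r was 0.47 with SFTPB and -0.15 with SFTPC. It was 0.76 with SFTPB without clone 1 alone, and 0.83 with SFTPC without normal calf 1 alone. Without clones 1 and 3, the farthest from the median of SFTPB, r with SFTPB was 0.33. Without clone 3 and normal calf 1, the farthest from the median of SFTPC, r with SFTPC was 0.30. With the second SFTPB probe, added after seeing the data, r of NKX2-1 was 0.83 (exact permutation p = 0.0119). No limma regression was fitted on that probe. The values also depended on the scaling. With quantile normalization r was 0.84 for SFTPB (exact permutation p = 0.0315) and 0.93 for SFTPC (exact permutation p = 0.0115). With normexp background correction and the 75th percentile it was 0.46 and 0.32.

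ETV5 was the sole factor with an unadjusted p under 0.05 against both surfactant genes. Its r was 0.77 with SFTPB (Spearman rho = 0.64, exact permutation p = 0.0326, limma adjusted p = 0.132) and 0.71 with SFTPC (Spearman rho = 0.57, exact permutation p = 0.0466, limma adjusted p = 0.218). After centring on the groups r was 0.84 (exact permutation p = 0.0747) and 0.78 (exact permutation p = 0.0903). Without the 2 farthest animals r fell to 0.16 and 0.011, so both relations rested on those animals. With SFTPC, r was 0.31 without clone 3 alone and 0.7 without normal calf 1 alone. With normexp and the 75th percentile r was 0.67 and 0.57 (exact permutation p = 0.0718 and 0.144). With the second SFTPB probe r was 0.75 (exact permutation p = 0.034).

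TBX4 was negatively correlated with SFTPB. Its r was -0.87 (Spearman rho = -0.83, exact permutation p = 0.00975, limma adjusted p = 0.064) and -0.93 after centring (exact permutation p = 0.0434). With group beside SFTPB in the regression its limma adjusted p was 0.0314, and 8.32% of all kept probes passed in that fit. Clone 1, with the highest SFTPB and the lowest TBX4, carried much of this. Without clones 1 and 3 r was -0.51 (exact permutation p = 0.315), and without clone 1 alone it was -0.61 (exact permutation p = 0.147). The value also depended on the scaling: r was -0.60 with quantile normalization (exact permutation p = 0.134), -0.51 with normexp and the 75th percentile (exact permutation p = 0.199) and -0.27 with spike-in centring (exact permutation p = 0.596). With the second SFTPB probe r was -0.87 (exact permutation p = 0.00784). Against SFTPC the r of TBX4 was -0.31 (Spearman rho = -0.19, exact permutation p = 0.452, limma adjusted p = 0.653).

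The remaining relations did not pass. KLF5 had r of 0.67 with SFTPC (Spearman rho = 0.45, exact permutation p = 0.0663, limma adjusted p = 0.268) and 0.14 with SFTPB (exact permutation p = 0.748). CEBPD had r of -0.57 with SFTPC (Spearman rho = -0.17, exact permutation p = 0.147) and -0.12 with SFTPB (exact permutation p = 0.701). CEBPA and ELF5 had r between -0.34 and 0.059 with either gene. CEBPA with SFTPC was 0.059 over all animals and 0.88 without clone 3 and normal calf 1 (exact permutation p = 0.00556). Clone 3 had the highest CEBPA and the lowest SFTPC, and normal calf 1 had the lowest CEBPA. In the regressions over all kept probes, 2 of 7 members had an unadjusted p under 0.05 on SFTPB, where 22.6% of probes did, and 1 of 7 on SFTPC, where 19.4% did. The count of members past an adjusted p of 0.05 was 0 on either gene, as was the count of all kept probes, 0% of them.

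**Figure D4:**
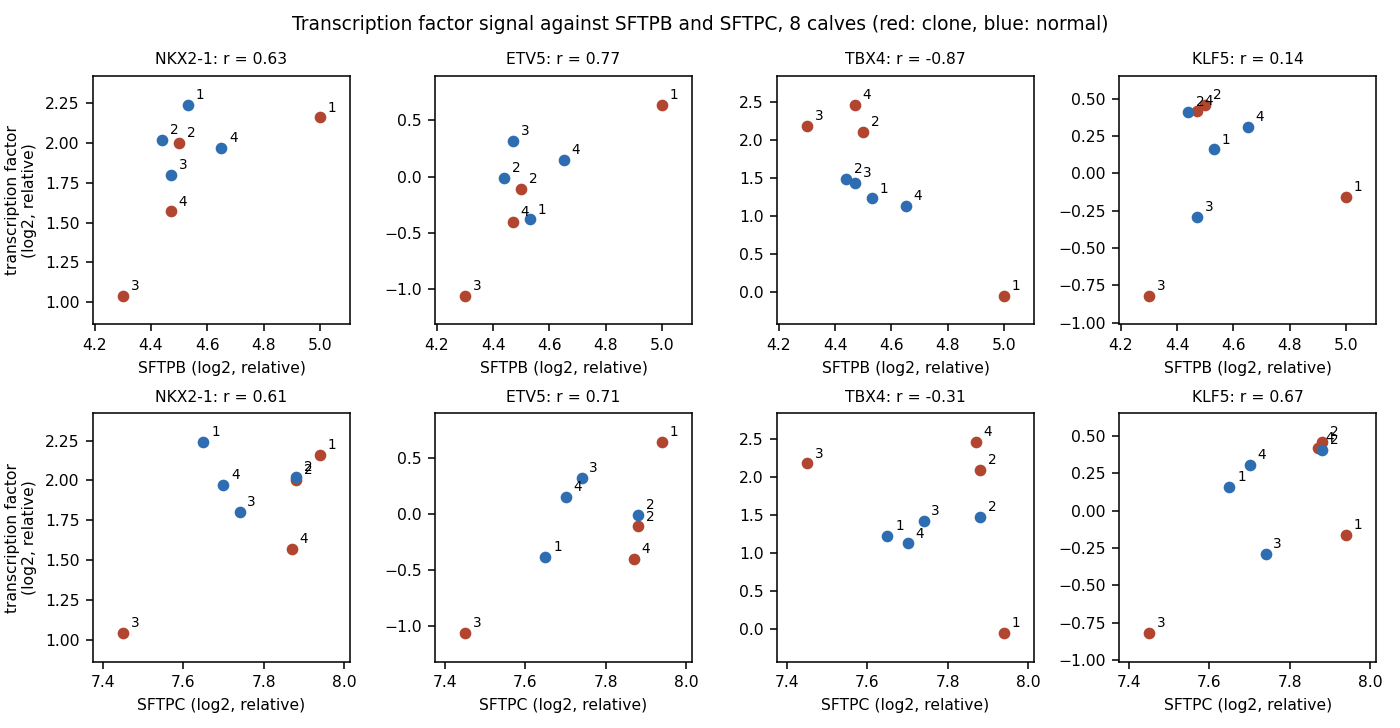
Signal of NKX2-1, ETV5, TBX4 and KLF5 against that of SFTPB (top) and SFTPC (bottom) in 8 calves, both as log2 relative to the array's 75th percentile, red for clones and blue for normal calves. Clone 1 at the right and clone 3 at the left carry most of the spread in SFTPB, where r was 0.77 for ETV5 and -0.87 for TBX4.

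**Figure D5:**
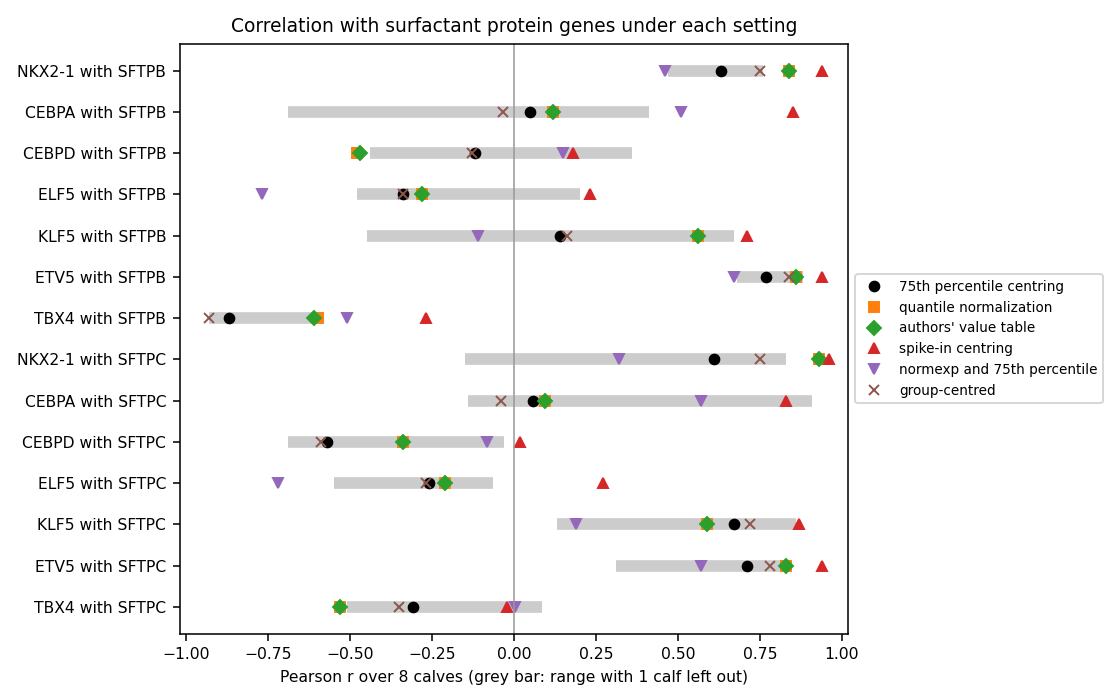
Pearson r of each factor with SFTPB and SFTPC under 75th percentile centring and 5 other treatments of the same arrays, with grey bars for the range when 1 calf was left out. NKX2-1 with SFTPC spans 0.32 to 0.96 over the treatments shown, and from -0.15 to 0.83 when 1 calf was left out.

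Among the factors themselves, 1 of 21 pairs had an exact permutation p under 0.05. TBX4 and ETV5 ran opposite to each other (r = -0.74, Spearman rho = -0.79, exact permutation p = 0.0370, limma adjusted p = 0.118), with r of -0.48 once clones 1 and 3 were left out. In the regressions over all kept probes, 24.5% had an unadjusted p under 0.05 on ETV5 and 26.6% on TBX4, so a relation of this size was common on the array. NKX2-1 and ETV5 had r of 0.71 (Spearman rho = 0.43, exact permutation p = 0.0528), which became -0.28 without clones 3 and 4. NKX2-1 with KLF5 was 0.61 (Spearman rho = 0.19, exact permutation p = 0.103). CEBPA and CEBPD had r of 0.59 (Spearman rho = 0.67, exact permutation p = 0.107). The genes whose pattern over the 8 animals was most like that of NKX2-1, among 9623 named genes compared, were POLR1E (r = 0.967), KATNA1 (r = 0.965), PPP1R14C (r = 0.958), SACM1L (r = 0.950) and WRAP73 (r = 0.949). These r values are the highest of many and are a description of these 8 arrays.

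Other lung transcription factors also yielded no call. Of 50 listed, 30 were measured, with 16 positive and 14 negative log2 differences and a median of 0.017. By limma 0 passed the adjusted threshold. An unadjusted p under 0.05 was found for 3 of 30, against 13.2% of all kept probes. HOPX, a small homeodomain protein of alveolar type I cells, was at 2.65 ± 0.41 in clones and 3.83 ± 0.26 in normal calves (mean ± SD, n = 4 each), a difference of -1.18 (limma adjusted p = 0.119). The lipid-sensing receptor PPARG differed by 0.50 and the forkhead factor FOXP1 by 0.59 (limma adjusted p = 0.318 and 0.379). ELF3, an epithelial ETS factor, differed by 1.06 (limma adjusted p = 0.397) with clone 3 at 5.32 and the other animals between 2.50 and 3.90. None of these differences passed, and HOPX was the 1 of 30 whose groups did not overlap, against 10.1% of kept probes.

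Genes placed downstream of the factors were measured for 16 of 25 listed, with 9 positive and 7 negative differences and a median of 0.036. By limma 0 passed the adjusted threshold. An unadjusted p under 0.05 was found for 3 of 16, against 13.2% of all kept probes. SCGB1A1, the secretoglobin of airway club cells, measured 1.23 ± 0.85 in clones and 3.04 ± 0.80 in normal calves, a difference of -1.80 (n = 4 each, limma adjusted p = 0.202). PON1, a paraoxonase whose link to these factors is less settled, differed by -3.93 (limma adjusted p = 0.0648), but 1 clone array alone had clear signal of its probe. The type I cell glycoprotein PDPN differed by 0.98 and the mucin MUC1 by 0.47 (limma adjusted p = 0.357 and 0.572). Airway cell markers were likewise lower on average without passing: 6 of 6 ciliated cell markers and 4 of 4 secretory and basal cell markers had negative differences, with medians of -0.97 and -1.94. The latter list includes SCGB1A1 itself. The mean of its 3 other markers was -5.07 to -0.91 in clones and -2.44 to 0.01 in normal calves, with 0 past the adjusted threshold, and their part in the SCGB1A1 values was not tested.

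Signals upstream of the factors were measured for 18 of 27 listed, with 11 positive and 7 negative differences and a median of 0.13. By limma 0 passed the adjusted threshold. An unadjusted p under 0.05 was found for 3 of 18, against 13.2% of all kept probes. The 2 FGF feedback inhibitors with the smallest p had opposite signs. SPRY2, which restrains receptor signalling, differed by -0.54 and DUSP6, the ERK phosphatase, by 0.48 (limma adjusted p = 0.304 and 0.354). TGFB1 differed by 0.45 and the Notch target HES1 by 0.79 (limma adjusted p = 0.357 and 0.491). HES1 was at -0.50 in clone 1 and between 1.09 and 1.63 in the other clones, with -0.08 to 0.27 in normal calves. Clone 1 was the lowest of all animals in 10 of 18 genes of this list, HES1 among them. It was below every normal calf in 43.2% of kept probes, which is a looser measure. The share of kept probes in which it was the lowest of all animals was not computed, so the count has no background.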

How the data were processed

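Per the file headers, the authors deposited Agilent Feature Extraction 10.7.3.1 output, in which each spot has a background-subtracted processed intensity in linear units, with no normalization between arrays. The authors' deposited value table held log2 values, with a median of 7.89 in each column and r of 0.9995 or more with the scanner values; which step equalised the columns is not stated, and the table served as an alternative. Control spots and 2 to 21 outlier spots per array were left out. From the log2 of the processed signal the 75th percentile of its array was subtracted, and spots of a probe were averaged. Probes well above background on at least 4 of 8 arrays were kept, 35636 of 43653. Accessions were matched to symbols of bovine RefSeq genes (ARS-UCD2.0), for 23492 probes. The array design names the build Btau_3.1, so no coordinates are given. A gene was represented by its brightest kept probe.

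The group comparison used limma 3.58.1 under R 4.3.3 (lmFit, eBayes, 2-sided, Benjamini-Hochberg over all kept probes, threshold 0.05). Intervals are 95%. Correlations used exact permutation of 40320 pairings, or 576 within groups. The precision is limited by 4 arrays a group, numbered as separate calves in the labels. By rule the named genes were all members, SFTPB and SFTPC, and up to 4 genes with the smallest p from each list. The 5 genes most like NKX2-1 were added, and part of the marker genes this allows are printed. Beyond this rule, IL6, FGF7, SPRY1, SPRY4, DDX3Y, USP9Y and some mesenchyme markers are named. The members and lists were chosen with earlier results of these data known. The fits were tested on simulated data. For normexp, median spot and background signals were used with an offset of 50, as the files used here hold no mean signal.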

Additional observations from a re-analysis of the deposited data

Results flagged for a closer look

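In 3 of 18 sets of 4 animals, 1 animal stood apart from the other 3 by Dixon's criterion for the gap to the nearest animal over the range, which chance meets in about 1 in 20 sets. TBX4 in clone 1 was at -0.05, with a gap of 0.856 of the range. SFTPC in clone 3 was at 7.45, with a gap of 0.842 of the range. CEBPD in normal calf 3 was at 5.04, with a gap of 0.875 of a range of only 0.10 log2 units.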

How the results depend on the processing

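Of 84 differences of the 7 factors under alternatives that kept all animals, 70 kept their direction and side of the threshold, 13 changed sign and 1 passed the threshold. Quantile normalization and the authors' value table gave CEBPD -0.020 and -0.020 and ELF5 0.064 and 0.065; normexp with quantile gave -0.024 and 0.029, median centring ELF5 0.0091, and array weights CEBPD -0.42, ELF5 0.11 and KLF5 0.21. Spike-in centring gave CEBPA -0.42, CEBPD -0.44 and TBX4 -0.33. With 1 animal left out, differences ranged from -0.47 to -0.10 for NKX2-1, 0.22 to 0.35 for CEBPA, -0.30 to 0.91 for CEBPD, -0.41 to 0.30 for ELF5, -0.54 to 0.026 for ETV5, -0.34 to 0.089 for KLF5 and 0.093 to 0.93 for TBX4.

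The count of factors past the threshold was 0 in every setting except 1 with array weights and 0 to 1 when an animal was left out; the factor was TBX4, without clone 1. The count of all probes, 63, became 10230 with spike-in centring (66 higher, 10164 lower), 0 with normexp and the 75th percentile, 25 with normexp and quantile, 17 with signal required on all 8 arrays, 145 with trend and robust settings (85 higher) and 11144 with array weights (5441 higher). It ranged from 17 to 2566 with 1 animal left out, the highest without clone 1 and 445 without clone 3. With the replicate number as a block it was 13, with 0 factors past the threshold. Same-numbered animals deviated with correlations of 0.0915, 0.0991, -0.203 and -0.0987, and 2 of 4 clones correlated best with their own number, so the numbers were not treated as pairs. Regression on SFTPB beside group gave 1 factor, TBX4, against 0 alone. The causes were not tested.

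Spike-in centring raised every r with SFTPB and SFTPC. Like centring on the 75th percentile, it subtracts 1 value per array from every gene. NKX2-1 rose to 0.94 and 0.96, ETV5 to 0.94 and 0.94, CEBPA to 0.85 and 0.83 and KLF5 to 0.71 and 0.87. TBX4 became -0.27 and -0.021. Normexp with the 75th percentile gave ELF5 -0.77 and -0.72. Correlations that changed sign were CEBPA with SFTPB (mean of probes -0.024, group-centred -0.034, second SFTPB probe, added after seeing the data, -0.051), CEBPA with SFTPC (group-centred -0.041), CEBPD with SFTPB (spike-in 0.18, normexp 0.15), CEBPD with SFTPC (spike-in 0.019), ELF5 (spike-in 0.23 and 0.27), KLF5 with SFTPB (normexp -0.11) and TBX4 with SFTPC (normexp 0.0029). With 1 animal left out, r with SFTPB ranged from 0.47 to 0.76 for NKX2-1, 0.68 to 0.88 for ETV5, -0.93 to -0.61 for TBX4, -0.69 to 0.41 for CEBPA, -0.44 to 0.36 for CEBPD, -0.48 to 0.20 for ELF5 and -0.45 to 0.67 for KLF5. With SFTPC the ranges were -0.15 to 0.83, 0.31 to 0.82, -0.51 to 0.084, -0.14 to 0.91, -0.69 to -0.031, -0.55 to -0.065 and 0.13 to 0.86 in the same order. ELF5 and the second CEBPA probe lay near background, which limits what their values can show.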
